A study of Mus musculus with 42 samples.

Results

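Fibroblast growth factor (FGF) ligands are secreted proteins that bind receptor tyrosine kinases on the same or neighbouring cells and activate ERK signalling, which in turn raises genes that restrain the pathway, such as the Sprouty and Dusp genes. In the early mouse embryo, FGF4 from the inner cell mass promotes the exit from naive pluripotency, and FGF8 is required for cells to leave the primitive streak. The expression of 7 FGF ligand genes, Fgf3, Fgf4, Fgf5, Fgf8, Fgf10, Fgf15 and Fgf17, was followed here through the differentiation of mouse embryonic stem cells (ESCs) into anterior definitive endoderm (ADE). The members were taken by name from 21382 genes with a RefSeq symbol on the array, each read by the brightest of its probes over all 42 arrays. Of the members, 6 had 1 probe and Fgf8 had 3, and all 7 had a probe above background on at least 21 arrays.

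The cells were a dual reporter ESC line with GFP at the Gsc locus and RedStar at the Hhex locus, so every population came from this line. Each of 14 groups held 3 one-colour Agilent arrays, described as independent experiments. The untreated groups were ESCs, unsorted d2 cells, GSC-negative (G-) and GSC-positive (G+) cells of d3 and d4, GSC-negative, GSC-low (Glow) and GSC-high (Ghigh) cells of d5, and GSC-high cells of d6 without (G+H-) or with (G+H+) HHEX reporter signal. The other 3 groups were d6 cultures for which the labels name no sort: Control received DMSO before and during differentiation, ADE_EPZ received DMSO before and 2.5 µM EPZ6438 during differentiation, and ES_EPZ received EPZ6438 before and DMSO during it. EPZ6438 inhibits EZH2, the methyltransferase of the repressive PRC2 complex. By the differentiation scheme of the study, the medium held activin A throughout, BMP4 up to d2 and, from then on, FGF4, EGF and insulin, so that all populations from d3 on received FGF4 protein.

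Values are the deposited log2 intensities, and a difference between groups was called where limma's adjusted p did not exceed 0.01 and the log2 fold change was 1.5 or more in size, as in the methods of the study. A probe that is not above background on any array of a group has only an upper bound there. The number of arrays limits the precision, and in these bulk samples fewer cells of a type and less RNA per cell cannot be told apart. At d3 Gsc itself read 11.78 ± 0.44 (SD, n = 3) with and 8.23 ± 0.46 without reporter signal, while Hhex in d6 G+H+ cells exceeded the G+H- level by a log2 fold change of 0.47 only (adjusted p = 1). The d5 arrays differed among themselves in all 3 populations: replicate 3 had the highest summed signal of 6 definitive endoderm markers (13.21 in G-, 14.53 in Glow and 16.06 in Ghigh cells, on the log2 scale) and the lowest of 6 mesoderm markers (11.54, 12.57 and 12.13), against ranges of 11.53 to 14.59 and 12.12 to 13.73 in replicates 1 and 2.

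**Figure D1:**
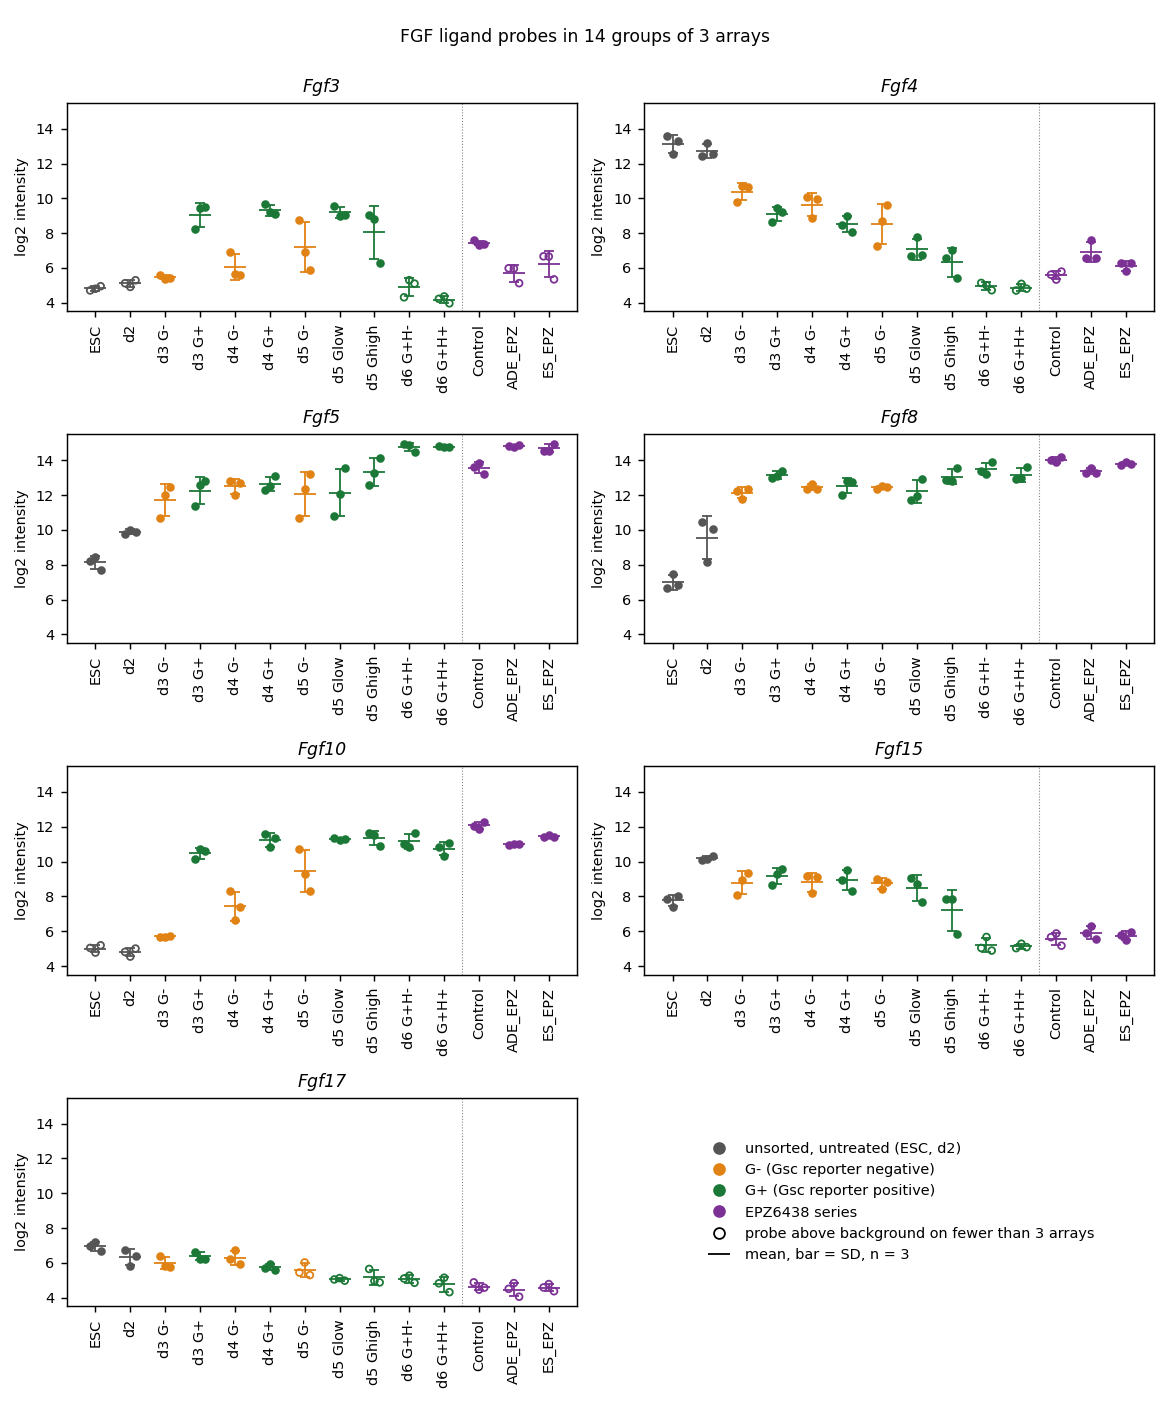
Deposited log2 intensity (vertical axis) of the 7 FGF ligand probes in the 14 groups (horizontal axis), with points for single arrays and bars for the mean and SD (n = 3); open points mark groups in which the probe was above background on fewer than 3 arrays. Fgf4 falls from ESCs to d6, Fgf5 and Fgf8 rise, Fgf3 and Fgf10 are higher in G+ than in G- cells at d3 and d4, Fgf15 is highest at d2, and Fgf17 stays below 7.2 on every array.

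The ligands were exchanged during differentiation rather than moving together. Over 10 comparisons of a differentiated population with ESCs, 48 of 70 tests of a ligand were called, of which 33 were increases and 15 were decreases. Fgf5, Fgf8 and Fgf10 were higher and Fgf4, Fgf15 and Fgf17 lower than in ESCs in both d6 populations, whereas Fgf3 was called only in populations of d3 to d5.

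At d2, 2 of the 7 ligands were called, Fgf8 and Fgf15, where 1.69% of all genes tested were called. At d3, 3 ligands were called in G- cells (2.39% of all genes) and 5 in G+ cells (6.53%). At d4, 4 were called in G- cells (3.18%) and 5 in G+ cells (7.34%). At d5, 5 were called in G- cells (4.29%), 6 in Glow cells (7.65%) and 6 in Ghigh cells (8.09%). At d6, 6 were called in G+H- cells (10.1%) and 6 in G+H+ cells (11.0%). The share of ligands called was above the share of all genes in each of the 10 comparisons. The members were chosen with earlier results of these data known, so this excess cannot be read as a trait of FGF ligands. Among 11 further secreted FGF genes, 0 were called at d2 and 2, both lower, in each d6 population. The median log2 fold change of the ligands was largest in d4 G+ cells, at 4.50, where that of all genes was 0.03, and it was 0.08 in d6 G+H- cells, where increases and decreases were equal in number.

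**Figure D2:**
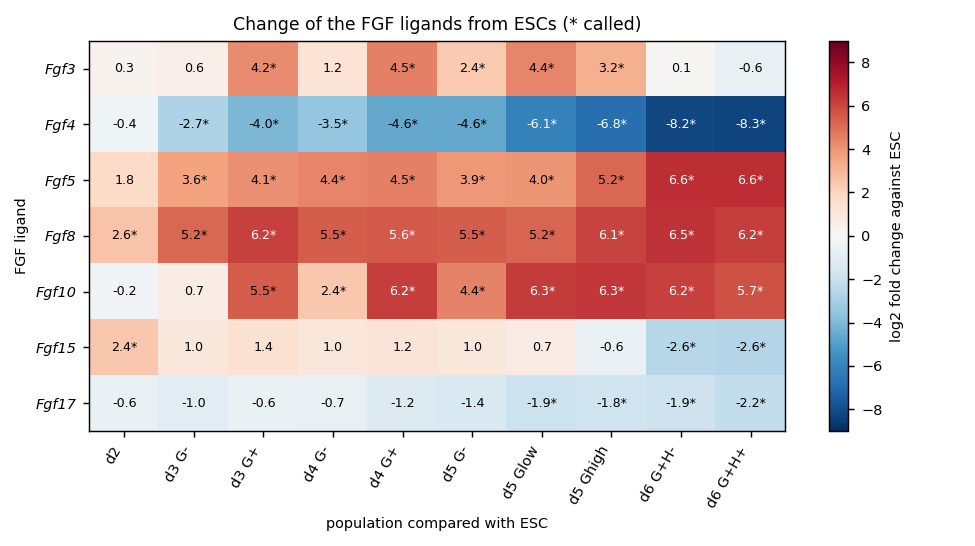
Log2 fold change against ESCs (colour and printed value) of the 7 ligands (rows) in 10 populations (columns), where an asterisk marks a called difference. Fgf8 carries an asterisk in every column, Fgf5 and Fgf4 in every column but d2, and Fgf10 in every column but d2 and d3 G-, and 6 of 7 ligands carry an asterisk in both d6 populations.

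Fgf4, which ESCs secrete and which drives their ERK activity, had the strongest loss. Its 3 ESC arrays read 13.58, 12.56 and 13.27 and its d2 arrays 12.44, 13.20 and 12.53, so that these groups overlapped (difference -0.41, SE 0.43, adjusted p = 0.855). At d3 the G- arrays read 9.81, 10.69 and 10.67 and the G+ arrays 8.66, 9.46 and 9.19. All of them lay below every ESC and d2 array, and the fall from d2 was called in both (log2 fold change -2.33 in G- and -3.62 in G+ cells). The fall in G- cells was not called in 2 of 6 fits with 1 array left out (adjusted p up to 0.0134). It was also not called under 1 of 12 alternative settings, and was -1.74 on the slide that held arrays of both groups. From there Fgf4 declined to 6.33 ± 0.82 in d5 Ghigh cells, and the probe was above background on no array at d6. The decrease from ESCs was at least 271-fold in d6 G+H- cells and at least 291-fold in G+H+ cells. In the order of the 11 untreated groups, 4 of 10 neighbouring steps exceeded the larger SD, and those from ESCs to d2 and between both d6 populations did not.

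Fgf4 was lower in GSC-expressing than in GSC-negative cells on each day by -1.29 at d3, -1.12 at d4 and -1.45 in d5 Glow cells, none of which was called, and by -2.20 in d5 Ghigh cells, which was (SE 0.43, adjusted p = 0.000992). The last difference was -0.28 on the slide that held arrays of both populations, -1.66 (adjusted p = 0.0248) without d5 G- replicate 3 and -1.75 (adjusted p = 0.0174) without d5 Ghigh replicate 3. Under 3 of 12 alternative settings this difference was not called. The summed signal of 6 naive pluripotency markers also fell, from between 15.99 and 16.62 in ESCs to between 10.72 and 11.69 at d6. Bright genes weigh most in this sum. The sum was already 14.09 to 14.49 at d2. It was 13.80 to 14.41 in d3 G- and 13.32 to 14.04 in d5 Glow cells. Of its genes, 4 were called lower and 1 higher in G+ than in G- cells at d3 and at d4. The part of these markers in the Fgf4 values was not tested.

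The sequence upstream of Fgf4 is shown with those of Fgf5, Fgf10 and Fgf3, since these genes changed in different directions and their promoters differ in base composition. Each run holds the 250 bases before the RefSeq transcription start (build GRCm38.p6, plus strand, written 5′ to 3′), and capitals mark letters found by a search of both strands for 8 short motifs, so that a match on the minus strand appears as its reverse complement.

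Fgf4, chr7:144861136-144861385: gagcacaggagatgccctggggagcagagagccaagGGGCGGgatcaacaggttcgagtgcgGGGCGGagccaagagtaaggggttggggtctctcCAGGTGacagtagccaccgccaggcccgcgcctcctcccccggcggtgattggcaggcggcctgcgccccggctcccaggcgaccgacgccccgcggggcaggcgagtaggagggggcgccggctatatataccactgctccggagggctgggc

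Fgf5, chr5:98253934-98254183: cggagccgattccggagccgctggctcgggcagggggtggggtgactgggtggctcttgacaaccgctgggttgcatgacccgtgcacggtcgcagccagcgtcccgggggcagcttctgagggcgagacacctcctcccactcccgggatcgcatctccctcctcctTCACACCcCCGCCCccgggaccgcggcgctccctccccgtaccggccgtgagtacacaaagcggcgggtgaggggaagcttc

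Fgf10, chr13:118714449-118714698: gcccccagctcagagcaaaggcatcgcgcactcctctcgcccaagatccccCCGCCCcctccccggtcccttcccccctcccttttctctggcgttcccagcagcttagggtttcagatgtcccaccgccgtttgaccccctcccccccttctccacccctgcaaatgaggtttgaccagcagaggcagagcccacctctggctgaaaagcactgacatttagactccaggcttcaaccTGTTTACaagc

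Fgf3, chr7:144838362-144838611: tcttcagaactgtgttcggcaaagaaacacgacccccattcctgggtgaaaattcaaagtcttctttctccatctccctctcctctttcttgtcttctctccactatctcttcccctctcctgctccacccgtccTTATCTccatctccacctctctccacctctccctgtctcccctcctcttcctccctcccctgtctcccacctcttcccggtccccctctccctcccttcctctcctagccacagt

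The Fgf4 window held 21 CpG dinucleotides and the Fgf5 window 24, more than 83.7% and 88% of the 32851 promoter windows of the same length. The Fgf10 window held 8 and the Fgf3 window 4, against a median of 6 over all promoters. The GC box GGGCGG occurred 2 times upstream of Fgf4 and 1 time each upstream of Fgf5 and Fgf10, and it was in 32.7% of all windows. Of the rarer letters, GGTGTGA, a T-box site, was upstream of Fgf5 and in 3.33% of all windows, and TGTTTAC, bound by FOXA factors, was upstream of Fgf10 and in 3.17%. The letters AGATAA, bound by GATA factors, were upstream of Fgf3 (9.99% of all windows). The E-box CACCTG was upstream of Fgf4 (17.2%). The octamer ATGCAAAT (1.6%), TATAAA (12.4%) and AATCCACA, a FOXH1 site (0.718%), were in none of the 4 windows. A match is a run of letters and not a measured binding site.

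Fgf5, the ligand commonly used to mark the primed epiblast, rose by d3 and stayed high. The ESC arrays of Fgf5 read 8.23, 8.47 and 7.72 and its d2 arrays 9.76, 10.02 and 9.90. All d2 arrays were higher, by 1.76 in the mean, with an adjusted p of 0.0306 that missed the threshold. In d3 G- cells Fgf5 reached 11.73 ± 0.93 and in G+ cells 12.26 (the arrays read 11.38, 12.60 and 12.79), and both exceeded the ESC level with a call (log2 fold change 3.59 and 4.12).

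Fgf5 did not return to a lower level in endoderm. The d5 Ghigh arrays read 12.57, 13.26 and 14.16, the d6 G+H- arrays 14.92, 14.85 and 14.50, and the d6 G+H+ arrays 14.84, 14.75 and 14.77. The 2 d6 groups were the highest of the 11 untreated groups, and every d6 array lay above every d5 Ghigh array. The step from d5 Ghigh was 1.43 (SE 0.51, adjusted p = 0.0981) for G+H- and 1.46 (adjusted p = 0.0538) for G+H+ cells, larger than the SDs of the groups but not called. Compared with ESCs, the log2 fold change was 6.62 and 6.65, with SE 0.51. The other markers of the primed epiblast list, which are Otx2, Pou3f1, Dnmt3b and Sox3, were summed with Fgf5, and that sum moved from between 14.36 and 14.84 in ESCs to between 17.00 and 17.22 at d6. Of these, Otx2 and Sox3 were called higher in both d6 populations and Dnmt3b in G+H+ cells, whereas Pou3f1 was called lower in both (-4.17 and -4.38). Within each day Fgf5 gave no call between GSC-positive and GSC-negative cells. The 95% confidence interval of the difference was -0.52 to 1.56 at d3 and -0.91 to 1.17 at d4. At d5 the difference was 0.07 in Glow cells and 1.26 in Ghigh cells (adjusted p = 0.191 for the latter). For Ghigh cells it was 2.57 on the slide that held arrays of both populations. The d5 G- arrays read 10.69, 12.34 and 13.19 and the Glow arrays 10.82, 12.07 and 13.54. Their SDs, 1.27 and 1.36, were far above the Glow difference of 0.07.

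Fgf8, the ligand of the primitive streak, was called against ESCs in all 10 populations. Its ESC arrays read 6.66, 7.47 and 6.82, and its d2 arrays 10.49, 8.14 and 10.07, which all exceeded the ESC arrays but spread over more than 2 log2 units. Within slides the d2 difference from ESCs was 0.67 on one and 3.25 on the other. By d3 the level was 12.14 ± 0.31 in G- and 13.17 ± 0.22 in G+ cells, and in the later untreated groups it stayed between 12.21 and 13.50. The G+ arrays of d3 lay above all G- arrays, by 1.03 (SE 0.36), without a call (adjusted p = 0.121).

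The 3 Fgf8 probes moved in the same direction in each comparison with ESCs, but not by the same amount. For d6 G+H- cells the log2 fold change was 6.52 by the brightest probe, 5.57 by the next and 1.69 by the dimmest. The dimmest probe, which read 4.86 ± 0.62 in ESCs and 6.64 ± 0.12 in d3 G+ cells, passed both thresholds in 4 of 10 comparisons, those of d3 G+, d5 Ghigh and the 2 d6 populations. All 10 were called by the other probes.

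Fgf10, which directs limb and lung budding later in the embryo, separated GSC-positive from GSC-negative cells most clearly. It was above background on no ESC array and on 1 of 3 d2 arrays. The d3 G- arrays read 5.68, 5.70 and 5.73 and the d3 G+ arrays 10.12, 10.72 and 10.59, and the G- arrays spread by less than 0.1 while every G+ array stood far above them. Against ESCs the increase in d3 G+ cells was at least 43.4-fold. On the 10 spots that carry the probe, the log2 values on ESC replicate 1 ranged from 4.79 to 5.34.

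The G+ level then changed little, while the G- level rose. In G+ cells the mean of Fgf10 was 11.24 at d4. It was 11.31 for Glow and 11.35 for Ghigh cells of d5. At d6 it was 11.17 without and 10.75 with HHEX signal, and no step between these groups was called. In G- cells the arrays read 8.30, 6.64 and 7.37 at d4 and 10.72, 9.27 and 8.32 at d5. Both steps, 1.74 from d3 to d4 and 2.00 from d4 to d5, missed the threshold (adjusted p = 0.0392 and 0.0144), although the groups of d3 and d4 did not overlap. By the comparison with ESCs, d4 G- (2.44) and d5 G- cells (4.44) were called.

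The excess of Fgf10 in GSC-positive cells was therefore 4.77 at d3 (1.78% of all genes called), 3.81 at d4 (2.26%), 1.87 in d5 Glow (0.753%) and 1.91 in d5 Ghigh cells (2.54%), each with SE 0.36 and each called. G+ arrays were above G- arrays in 9 of 9 pairs on each day. The change of this excess from d3 to the mean of both d5 populations was -2.89 (SE 0.48, adjusted p = 0.00199), and it was the only such change called among the ligands, where 0.215% of all genes were called. It was not called with an offset of 50 in the background correction (-2.17, adjusted p = 0.0102), with only the compared groups in the fit (adjusted p = 0.0844) or with only the arrays of the untreated series (adjusted p = 0.0115). Between d3 and d4 it was -0.97 (95% confidence interval -2.00 to 0.07), and no gene tested was called.

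The d5 values rest on few arrays. With 1 array left out, the call was lost in 4 of 6 fits for Glow and in 1 of 6 for Ghigh cells. Under the alternative settings it was lost in 2 of 12 for Glow and 1 of 12 for Ghigh cells. Without d5 G- replicate 3 the excess was 1.31 in Glow (adjusted p = 0.0633) and 1.35 in Ghigh cells (adjusted p = 0.0179). On single slides it was 2.03 and 3.00 in Glow cells and 0.79 in Ghigh cells, and at d4 it was 2.52 and 4.94. The order of the d5 G- arrays in Fgf10 was also their order in the summed mesoderm markers, which read 13.56, 12.12 and 11.54. The part of these markers in the Fgf10 values was not tested.

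**Figure D3:**
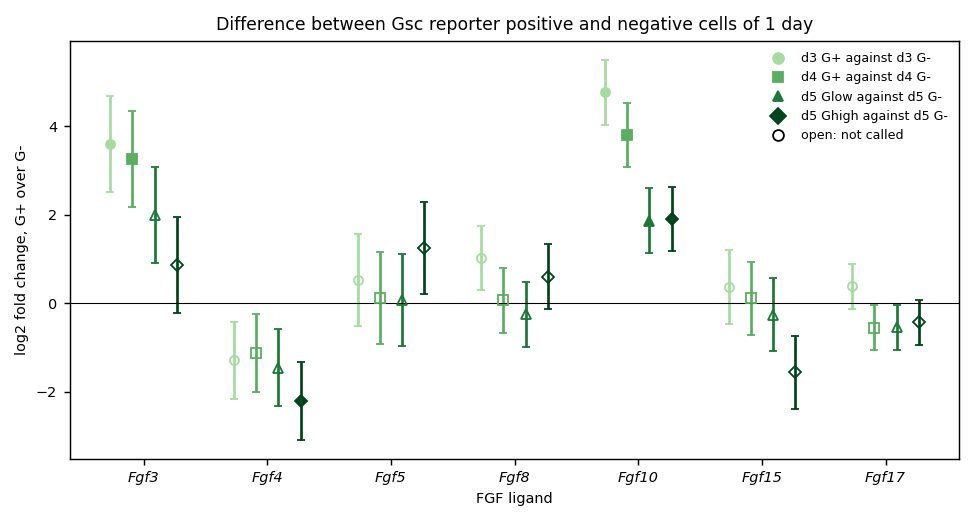
Log2 fold change of GSC-positive over GSC-negative cells (vertical axis) for each ligand (horizontal axis) on d3, d4 and d5, with 95% confidence intervals from the limma fit; filled symbols are called. Fgf10 is called in all 4 comparisons and its excess narrows from 4.77 to 1.87, Fgf3 is called at d3 and d4, and Fgf4 lies below 0 throughout.

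Fgf3, a relative of Fgf10 known from inner ear development, was also higher in G+ than in G- cells at d3 and d4, but was transient. The d3 G- arrays read 5.58, 5.36 and 5.43 and the d3 G+ arrays 8.25, 9.42 and 9.48. At d4 the G- arrays read 6.94, 5.63 and 5.61 and the G+ arrays 9.67, 9.21 and 9.09. The groups did not overlap on either day, and G+ cells were higher by 3.59 at d3 (SE 0.53, adjusted p = 2.2e-05) and 3.26 at d4 (adjusted p = 0.000107). At d5 the excess was 2.00 in Glow cells (adjusted p = 0.0415) and 0.86 in Ghigh cells (adjusted p = 0.497), neither called, and the d5 G- arrays spread from 5.90 to 8.74.

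At d6 Fgf3 was again near its ESC mean of 4.82. In G+H- cells the arrays read 4.31, 5.30 and 5.10, with the probe above background on 1 of 3, and in G+H+ cells 4.23, 4.36 and 3.97, on none. Compared with d5 Ghigh, Fgf3 fell by 3.14 on the log2 scale in G+H- cells (adjusted p = 0.000169) and was at least 8.53-fold lower in G+H+ cells (adjusted p = 2.84e-06). The d5 Ghigh arrays themselves read 9.02, 8.81 and 6.31, and the lowest is that of replicate 3, which also had the lowest Fgf4 and Fgf15 and the highest Fgf5 of its group. Fgf10, by contrast, read 10.33 or more on all d6 arrays, and its difference from d5 Ghigh was -0.18 for G+H- and -0.60 for G+H+ cells, neither called.

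Fgf15, the mouse counterpart of human FGF19 that later serves as a gut hormone, peaked at d2. The ESC arrays read 7.84, 7.40 and 8.05 and the d2 arrays 10.11, 10.17 and 10.34, a difference of 2.44 (SE 0.41, adjusted p = 0.000112). It lay between 8.50 and 9.17 in the group means from d3 to d5 Glow, where no difference from ESCs was called, and at 7.19 ± 1.17 in d5 Ghigh cells. At d6 the means were 5.20 and 5.13 with the probe above background on 1 of 3 arrays in each population, and both falls from d5 Ghigh were called (-1.99 and -2.06). The first was not called in 4 of 6 fits with 1 array left out. Without d5 Ghigh replicate 1 or 2, it was -1.66 (adjusted p = 0.0273) or -1.65 (adjusted p = 0.0284). Each of these falls also lost its call under 2 of 12 alternative settings. The fall from d4 G+ to d5 Ghigh, -1.74 with an adjusted p of 0.00956, was not called under 6 of 12 alternative settings. It was -1.06 (adjusted p = 0.132) without d5 Ghigh replicate 3, -1.72 (adjusted p = 0.0372) without d4 G+ replicate 1 and -1.45 (adjusted p = 0.0699) without d4 G+ replicate 2.

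Fgf17, of the same subfamily as Fgf8, was weak throughout and moved the opposite way. It read 6.99, 7.17 and 6.68 in ESCs, the highest of the groups, and 6.74, 5.85 and 6.42 at d2. From d5 Glow to d6 the means were between 4.76 and 5.16, and the decrease from ESCs was called in these 4 groups. It was at least 3.73-fold in d5 Glow cells, at least 3.54-fold in d6 G+H- and at least 3.94-fold in d6 G+H+ cells, in which no array was above background. With a larger offset of 50 in the background correction these 4 differences were between -1.11 and -1.29 and no longer reached the fold threshold.

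Between populations of 1 day, 7 of 42 tests were called, 6 higher and 1 lower in the cells with more GSC signal. These were Fgf3 at d3 and d4, Fgf10 at d3, d4 and in both d5 comparisons, and Fgf4 in d5 Ghigh cells. Between d5 Ghigh and Glow cells no ligand was called (0.262% of all genes), although 4 had an unadjusted limma p under 0.05. Between d6 G+H+ and G+H- cells no ligand and no other gene was called (0% of all genes), and no ligand had an unadjusted p under 0.05. For the 3 ligands above background on all d6 arrays, the 95% confidence interval of this difference was -1.01 to 1.07 for Fgf5, -1.06 to 0.40 for Fgf8 and -1.15 to 0.31 for Fgf10. The other 4 were above background on at most 1 of 3 arrays in either population, so that a difference between them could not be measured.

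Between successive populations, 13 of 63 tests were called, 5 higher and 8 lower. The transition from d2 to d3 held 7 of these, with 2 of 7 ligands called in G- cells (1.28% of all genes) and 5 of 7 in G+ cells (5.66%). No ligand was called from d3 to d4 in G- cells (0.00935%) or G+ cells (0.0374%), from d4 to d5 in G- cells (0.0281%) or from d4 G+ to d5 Glow cells (0.136%). At an unadjusted limma p under 0.05 the numbers were 1, 2, 4 and 2 of 7. From d4 G+ to d5 Ghigh 2 ligands were called (1.13%), both lower, and from d5 Ghigh to d6 also 2 in each population (2.15% and 4.14%), both lower. The step from d4 G+ held Fgf15 and Fgf4 (-2.18). That Fgf4 call was lost in 2 of 6 fits with 1 array left out and under 3 of 12 alternative settings. Called increases ended with the step from d2 to d3, whereas called decreases extended to d6. Later rises that were not called included Fgf10 in G- cells, by 1.74 to d4 and 2.00 to d5 (adjusted p = 0.0392 and 0.0144). Fgf5 rose by 1.46 from d5 Ghigh to d6 G+H+ cells (adjusted p = 0.0538).

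Fgf3, Fgf4 and Fgf15 lie next to each other on chromosome 7, in the order Ano1, Fgf3, Fgf4, Fgf15 and LTO1 among protein-coding genes, yet their highest groups were d4 G+, ESC and d2. Over the 33 untreated arrays, Pearson's r was -0.14 between Fgf3 and Fgf4, 0.72 between Fgf4 and Fgf15, and 0.44 between Fgf3 and Fgf15. Fgf5 followed both of its chromosomal neighbours, with r of 0.95 to Cfap299 and 0.84 to Prdm8. Only 2 of 17755 other genes had a higher r to Fgf5 than Cfap299, but 145 had a higher r than Prdm8. For Fgf4, 1651 genes had a higher r than Fgf15. For Fgf8 the r was 0.63 to Fbxw4 and 0.33 to Npm3, and for Fgf17 it was 0.74 to Dmtn and -0.71 to Npm2. A higher r was found in 1159 genes for Fgf8 than Fbxw4 and in 414 genes for Fgf17 than Dmtn. These arrays share their populations and slides, so that the correlations are descriptions.

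Of 17757 genes compared by Pearson's r over the same 33 arrays, those most like Fgf4 were Bard1 (0.98), Dppa2 (0.97) and Foxp1 (0.97). Fgf5 was most like Tgfbr3 (0.97), the endoderm factor Foxa2 (0.96) and Cfap299, and among the genes most like Fgf8 were Mycl (0.96) and Ccnjl (0.91). Fgf10 was most like the chemokine receptor gene Cxcr4, Zfpm1 and Prdm6 (0.97 each). Fgf3 was most like St6galnac4 (0.97), Pdgfrb (0.94) and Sh3bp1 (0.94). For Fgf15 the nearest were Utp4, Nolc1 and Rrp1b (0.94 each), and for Fgf17 they were Gbx2, Nlrp5 (0.89 each) and Maneal (0.87). Between ligands, Fgf5 and Fgf8 had the highest r (0.87), and Fgf4 the lowest, with Fgf10 (-0.86) and Fgf5 (-0.85).

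In the EPZ6438 series, no ligand was called in any of 21 tests. The genes called among all tested were 2.74% in ADE_EPZ and 0.426% in ES_EPZ cultures against Control and 0.131% between both regimens. At an unadjusted limma p under 0.05 the ligands numbered 4, 2 and 0 of 7. In ADE_EPZ cultures Fgf3, Fgf8 and Fgf10 were lower and Fgf4 and Fgf5 higher than in Control on every pair of arrays.

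Fgf3 had the largest of these differences. The Control arrays read 7.59, 7.34 and 7.40, the ADE_EPZ arrays 5.98, 5.97 and 5.13, and the ES_EPZ arrays 6.67, 6.66 and 5.34. All treated arrays were lower than all Control arrays, with a mean difference of -1.75 for ADE_EPZ (SE 0.53, adjusted p = 0.0281) and -1.22 for ES_EPZ (adjusted p = 0.305). Within the 3 slides, each of which held 1 array of each group, the ADE_EPZ difference was -2.21, -1.41 and -1.62. It passed the threshold with only the arrays of the EPZ6438 series in the fit (adjusted p = 0.00985).

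Fgf4 read 5.62, 5.33 and 5.79 in Control, where 2 of 3 arrays were above background, and 6.59, 7.61 and 6.58 in ADE_EPZ cultures. The ADE_EPZ arrays were all higher, by 1.35 (SE 0.43, adjusted p = 0.0391), and by 1.25, 0.80 and 1.99 within slides. Fgf10 was lower by a log2 fold change of -1.07 (adjusted p = 0.0505) and Fgf5 higher by 1.26 (adjusted p = 0.129) in ADE_EPZ, and the ES_EPZ differences had the same signs, at -0.63 and 1.12. The Fgf8 differences within slides were -0.59, -0.92 and -0.41. For Fgf8, Fgf15 and Fgf17 the 95% confidence intervals of the ADE_EPZ difference were -1.37 to 0.09, -0.47 to 1.19 and -0.68 to 0.34. Fgf17 was above background on no array of the series.

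The marker lists moved with the regimen too. The summed signal of the definitive endoderm list was 14.30 to 14.76 in Control, 15.68 to 16.14 in ADE_EPZ and 15.48 to 16.08 in ES_EPZ cultures, and that of the naive pluripotency list was 13.43 to 13.86, 11.56 to 12.20 and 11.49 to 12.56. The primitive streak sum was 14.31 to 14.57 in Control, 13.71 to 13.99 in ADE_EPZ and 14.10 to 14.23 in ES_EPZ cultures. The mesoderm sum was 11.78 to 12.19, 11.33 to 11.65 and 11.73 to 11.91 in the same order, so that ES_EPZ overlapped Control. The members of the naive list went both ways. In ADE_EPZ cultures Zfp42 (1.51, adjusted p = 0.0023) was called higher and Tbx3, which is also expressed outside pluripotent cells, lower than in Control (-3.34, adjusted p = 0.00135), and the median log2 fold change of the list was 0.91, against 0.01 in ES_EPZ cultures, where none of its genes was called. The part of these differences in the ligand values was not tested.

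**Figure D4:**
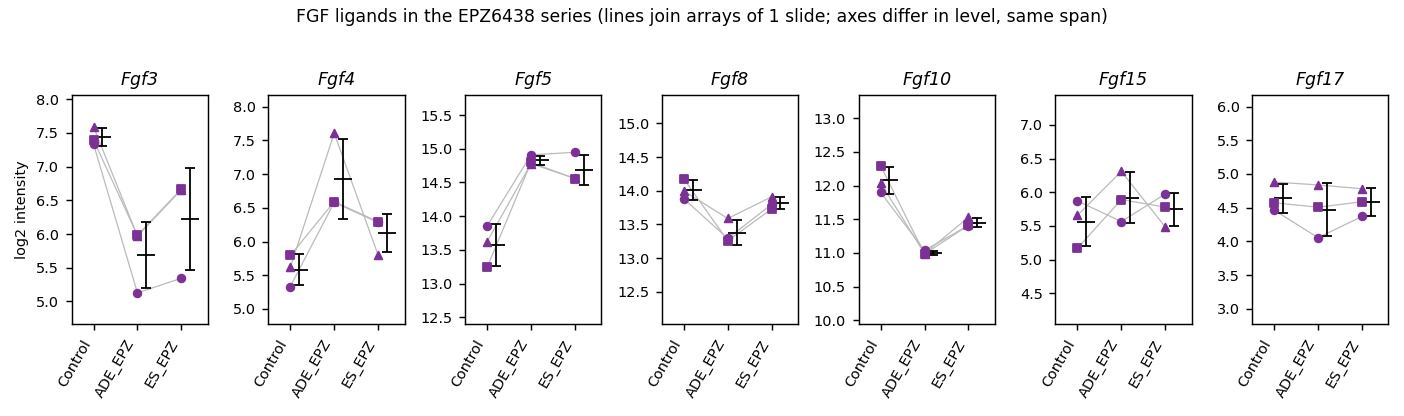
Log2 intensity (vertical axes, shifted per gene but of equal span) of the 7 ligands in Control, ADE_EPZ and ES_EPZ cultures (horizontal axes), with points for arrays, grey lines joining the arrays of 1 slide, and bars for the mean and SD (n = 3). Fgf3 and Fgf10 are lower and Fgf5 is higher in all treated arrays, and Fgf4 is higher in all ADE_EPZ arrays than in Control, without a called difference.

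All of 11 further secreted FGF genes had a probe, and 10 were above background on at least 3 arrays. None was called at d2 and at most 3 in any later comparison with ESCs. The share of all genes called was 1.69% at d2 and between 2.39% and 11.0% in the later comparisons. Fgf1, a ligand for all FGF receptors, and Fgf18, a relative of Fgf8, were lower, Fgf1 in each population from d3 on, and Fgf9 was higher for a time. Fgf18 fell by 3.24 in d6 G+H- cells (SE 0.30) and by 3.42 in G+H+ cells, from 9.73 ± 0.78 in ESCs. Fgf9 was higher than in ESCs by 2.12 in d3 G+ and 2.43 in d4 G+ cells and read 5.18 ± 0.15 in d6 G+H+ cells, near its ESC mean of 5.20. The 4 intracellular FGF homologous factors, which do not bind the receptors, had no call in any comparison with ESCs.

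Among 10 receptors and co-receptors, both d6 populations had 3 called increases, and G+H+ cells also had 1 called decrease. Flrt3, a membrane protein that binds FGF receptors, rose by 3.15 and 3.68 (SE 0.33), Fgfrl1, a receptor without a kinase domain, rose by 2.10 and 2.17, and Flrt2 rose in both, by 1.59 in G+H+ cells. The receptor gene Fgfr1 was lower in G+H+ cells (-1.54, SE 0.39, adjusted p = 0.00224). Flrt3 was also the only member of this list called between G+ and G- cells at d4 (1.81), where 2.26% of all genes were called. The receptor genes Fgfr2 and Fgfr3 had no call against ESCs, and Fgfr4 was lower in d3 G+, d4 G- and d5 G- cells (-1.53, -1.68 and -1.73). The shares of all genes called there were 6.53%, 3.18% and 4.29%.

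Among 14 ERK targets and feedback regulators, both d6 populations had 1 called increase, with 3 called decreases without and 4 with HHEX signal. The share of all genes called was 10.1% without and 11.0% with HHEX signal. Fgf5, Fgf8 and Fgf10 stood far above their ESC levels in both populations. The ETS factor genes Etv1 (-3.25 and -3.74) and Etv5 (-2.67 and -2.36) and the feedback inhibitor Spry2 (-2.00 and -1.94) were lower in both, and the early response gene Egr1 was higher (2.17 and 1.97). The median log2 fold change of this list was -0.62 and -0.89, that of all genes 0.00 and that of the ligands 0.08 and -0.64. At d3 the list had 1 call in each population, Spry4 lower in G- cells (-1.64) and Dusp6, a phosphatase of ERK, higher in G+ cells (1.52). The share of all genes called was 2.39% in G- and 6.53% in G+ cells, and 1 of 14 is near the latter. In ADE_EPZ cultures Etv1 (-1.69) and Spred1, an inhibitor of the pathway (-1.65), were the members called, both lower than in Control. Of all genes, 2.74% were called in that comparison.

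**Figure D5:**
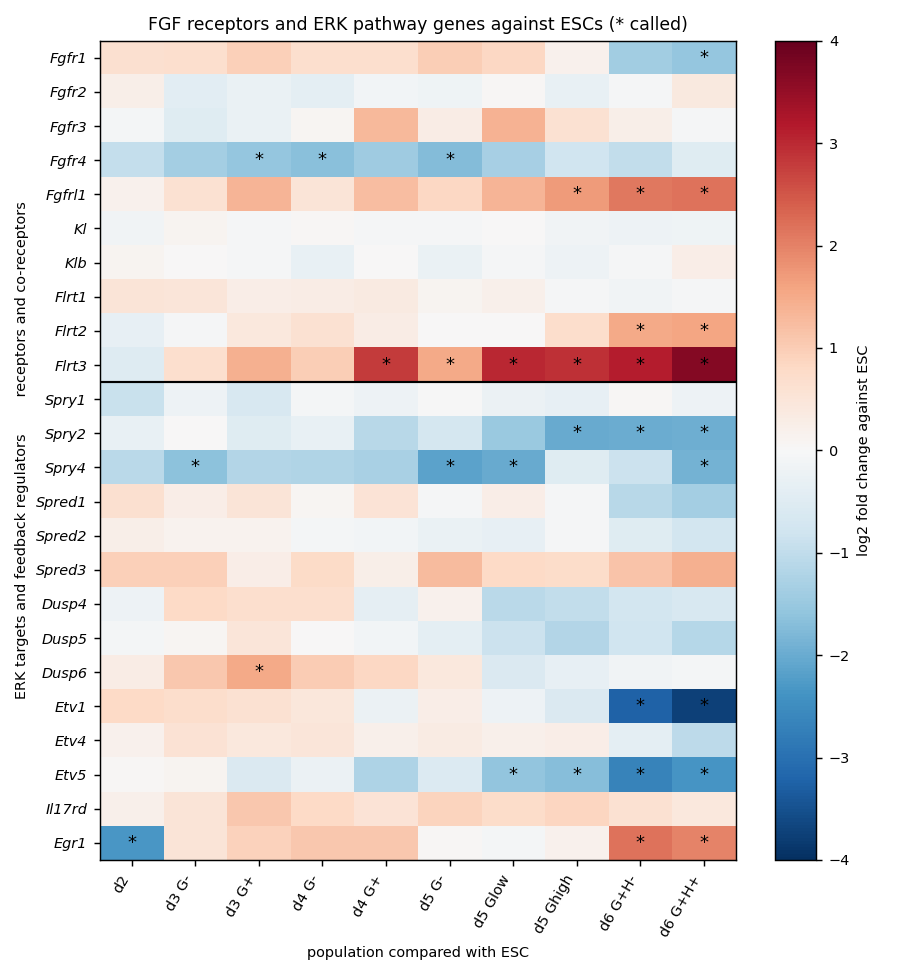
Log2 fold change against ESCs (colour) of 10 FGF receptors and co-receptors and 14 ERK targets and feedback regulators (rows) in 10 populations (columns), where an asterisk marks a called difference. Flrt3 and Fgfrl1 are higher and Etv1, Etv5 and Spry2 lower in both d6 populations, and most other cells of the map carry no asterisk.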

How the data were processed

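RNA of 42 samples was hybridised to one-colour Agilent mouse arrays and scanned with Feature Extraction 11.0.1.1 (untreated series) or 12.0.1.1 (EPZ6438 series). The authors corrected the scanner intensity with limma's normexp (offset 10) and quantile normalised all arrays, and deposited log2 values, 1 per spot. Recomputing them from the scanner files gave a correlation of at least 0.999989. Spots without an outlier mark were averaged per probe, leaving 55681 probes, named through their RefSeq accession. Array totals carry no depth, and no spot was saturated.

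All members were named, and from the other lists all called genes, or the 4 with the largest change where more were called. The members and lists were chosen with earlier results of these data known. A single limma fit (version 3.58.1, R 4.3.3) held 1 mean per group over all 42 arrays, with Benjamini-Hochberg adjustment over all probes. It was checked on simulated data. A bound ("at least N-fold") sets the brighter mean against the lowest signal above background, or the dim probe's own where higher, on each array. Slides (8) were tested as a batch: replicates 1 and 2 of the untreated series were on slides 1 to 3, replicate 3 on 4 and 5, and the EPZ6438 series on 6 to 8, so that series and slides cannot be told apart. Promoter sequences are RefSeq's, of build GRCm38.p6, and 4 of 7 members matched (Fgf8, Fgf15 and Fgf17 did not). Likeness is Pearson's r over the 33 untreated arrays among genes above background on at least 3 of them. For Fgf8, 1 of the 3 nearest genes is not reported here. Neighbouring levels were called beyond the spread where they differed by more than the larger SD.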

Additional observations from a re-analysis of the deposited data

Results flagged for a closer look

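The excess of Fgf10 in GSC-positive over GSC-negative cells differed between days. From d3 to the mean of the d5 Glow and Ghigh populations it changed by -2.885 on the log2 scale (SE 0.48, limma adjusted p = 0.00199), and it was not called under 3 of 12 alternative settings. The G- mean was 5.70 at d3 and 9.44 at d5, and the G+ means were 10.48 at d3, 11.31 in d5 Glow and 11.35 in d5 Ghigh cells.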

How the results depend on the processing

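Of 70 ligand tests against ESCs, 44 to 50 were called under every alternative setting, and 47 to 49 with single arrays left out. The 7 calls between populations of 1 day became 4 with only the compared groups in the fit, and 4 to 9 with single arrays left out, the lowest without d5 G- replicate 3. The 13 calls between successive populations became 6 with only the compared groups in the fit, and 11 to 13 with single arrays left out. In the EPZ6438 series 1 call in place of 0 came, each time for Fgf3 in ADE_EPZ cultures, with only the compared groups, with only the arrays of the series, and with the p threshold at 0.05, and it stayed 0 with single arrays left out. The change of the Fgf10 excess from d3 to d5 was not called (0 calls) with an offset of 50, with only the compared groups (adjusted p = 0.0844) or with only the arrays of the series (adjusted p = 0.0115), and was called (1) with any single array left out. Fewer arrays in a fit leave fewer degrees of freedom, and the cause of the other moves was not tested. No called value changed sign. Deviations from the group means correlated above 0.1 in 133 of 165 untreated pairs with the same replicate number (median r 0.25), against 73 of 330 with different numbers (median r -0.20), and in 6 of 9 against 2 of 18 pairs of the EPZ6438 series. Not every pair did so, and the labels name no shared culture or day, so the number was not taken as a pairing, although replicate 3 of the untreated series was on other slides than replicates 1 and 2. With the replicate block, 49, 7, 14, 0 and 1 tests were called in the 5 sets of comparisons, 206 of 210 single tests kept their side of the threshold, 3 passed and 1 was lost. With slide as a fixed term 207 of 210 did so and 3 were lost. Dim probes, Fgf17 above all, limit the size of a decrease.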
